A study of Mus musculus with 4 samples.

Results

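The collagen genes of the injured mouse kidney were examined in 4 RNA-sequencing libraries, 2 from WT and 2 from tubule-specific Apela knockout (Apela Ksp KO, here KO) mice. Of the 54078 features in the deposited expression table, 44 were protein-coding genes with a collagen chain symbol (Col, a type number, a and a chain number), covering 27 collagen types. They were grouped into 11 fibrillar, 9 basement membrane and 24 other collagen genes. Of these 44 genes, 24 passed the filter of a mean FPKM (fragments scaled to gene length and library total) of at least 0.5 and were tested, namely 7 fibrillar, 8 basement membrane and 9 other genes. Apela encodes ELABELA, a secreted peptide ligand of the apelin receptor. KO mice carried 2 floxed Apela alleles and a Cre transgene driven by the Ksp-cadherin promoter, which is active in renal tubular epithelium, so that other kidney cells keep the floxed gene, and the WT group was made up of Cre-negative littermates with the same floxed alleles. All mice were adult males whose kidneys were both clamped for 30 min and taken at day 3 of reperfusion (I/R), and each library is described as a pool of RNA from 3 mice, so n = 2 counts pools and no value belongs to a single mouse. The pooling is given in the design text of the series alone, which also names another tissue. The sample labels give a C57BL/6 x 129S4/SvJae background and the methods C57BL/6. No uninjured library was analysed, so an effect of I/R itself is not measured here.

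The series carries conflicting statements on the tissue, with adipose tissue in its design text and kidney in its title, sample labels and methods. Umod, made by the thick ascending limb, had an FPKM of 1080 and 788 (WT) and of 1133 and 858 (KO), and the podocyte gene Nphs1 lay between 2.76 and 3.32. Of 10 adipocyte genes 3 passed the filter, namely Fabp4 (10.2 to 14.6), a lipid carrier also found in endothelium, Lipe (2.96 to 5.00) and Cidec, which had 1.37 and 0.282 (WT) and 7.92 and 2.79 (KO). Adipoq and Lep had at most 0.268 in any pool, and the adipocyte list summed to an FPKM of 15.9 and 16.6 (WT) and 27.9 and 17.9 (KO). Reads on genes numbered 16045724 to 16927742 per library. Apela itself had an FPKM of 5.27 and 4.57 (WT) and of 0.536 and 0.245 (KO), lower in both KO pools than in either WT pool.

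Collagens are secreted proteins whose chains wind around each other into a triple helix. Fibrillar collagens, chiefly types I and III in the kidney, are made by fibroblasts and pericytes and build the interstitial fibrils that accumulate in fibrosis. Type IV collagen forms the sheet-like network of basement membranes, in which the chains of Col4a1 and Col4a2 are widespread while those of Col4a3, Col4a4 and Col4a5 make up the network of the mature glomerular basement membrane. The remaining types associate with fibrils, form beaded filaments or short networks, or span the cell membrane.

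The type IV genes lie in head-to-head pairs, which share the sequence between their starts. The starts of Col4a1 (minus strand) and Col4a2 (plus strand) on chromosome 8 overlap by 22 bases, those of Col4a4 and Col4a3 on chromosome 1 are separated by 71 bases, and those of Col4a6 and Col4a5 on chromosome X by 1308 bases. RefSeq windows of 300 bases, from 250 before to 50 after the start that RefSeq gives a gene in GRCm38.p6, were found for 35 of the 44 genes. The start that the deposited table gives lay inside the window for 30 of these genes and outside it for 5, among them Col1a2 and Col27a1, whose RefSeq starts lie 804 and 1408 bases downstream of it, so that both windows are within the gene as the table gives it. No window was used for Col1a1, Col2a1, Col4a3, Col5a2, Col9a3, Col12a1, Col14a1, Col22a1 and Col26a1. The windows of Col4a1 (chr8:11312777-11313076, minus strand) and Col4a4 (chr1:82586800-82587099, minus strand) are shown because each also holds the start of its partner, those of Col1a2 (chr6:4505368-4505667, plus strand) and Col3a1 (chr1:45311288-45311587, plus strand) because they belong to major fibrillar genes with like values over the pools, and that of Col27a1 (chr4:63215162-63215461, plus strand) because it is a fibrillar gene with the opposite order of the WT pools. Each is written 5′ to 3′ on the strand of its gene, and capitals mark matches to the letters CCAAT of the CCAAT box, to GGGCGG as in the GC box bound by SP1, and to TATAAA of the TATA box. All were searched on both strands, so a match on the other strand appears as its reverse complement. No motif contains another, and none of the matches shown overlap.
Col4a1: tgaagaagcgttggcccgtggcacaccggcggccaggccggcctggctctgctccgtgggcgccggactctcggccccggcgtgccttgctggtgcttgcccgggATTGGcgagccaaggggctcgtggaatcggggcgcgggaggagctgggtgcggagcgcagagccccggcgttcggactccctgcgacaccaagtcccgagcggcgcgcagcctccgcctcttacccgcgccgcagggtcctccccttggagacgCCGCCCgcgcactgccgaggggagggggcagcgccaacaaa
Col4a4: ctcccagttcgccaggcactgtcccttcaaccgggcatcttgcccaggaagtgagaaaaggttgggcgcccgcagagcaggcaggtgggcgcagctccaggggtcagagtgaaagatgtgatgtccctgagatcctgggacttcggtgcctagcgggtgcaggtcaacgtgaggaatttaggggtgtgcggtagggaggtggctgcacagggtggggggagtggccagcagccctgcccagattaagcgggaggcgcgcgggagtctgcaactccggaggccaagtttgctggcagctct
Col1a2: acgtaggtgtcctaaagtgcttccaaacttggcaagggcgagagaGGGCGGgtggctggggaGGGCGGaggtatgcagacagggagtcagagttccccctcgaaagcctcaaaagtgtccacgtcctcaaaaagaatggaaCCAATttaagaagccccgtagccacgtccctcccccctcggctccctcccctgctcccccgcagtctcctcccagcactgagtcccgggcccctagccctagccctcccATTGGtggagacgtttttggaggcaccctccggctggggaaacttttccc
Col3a1: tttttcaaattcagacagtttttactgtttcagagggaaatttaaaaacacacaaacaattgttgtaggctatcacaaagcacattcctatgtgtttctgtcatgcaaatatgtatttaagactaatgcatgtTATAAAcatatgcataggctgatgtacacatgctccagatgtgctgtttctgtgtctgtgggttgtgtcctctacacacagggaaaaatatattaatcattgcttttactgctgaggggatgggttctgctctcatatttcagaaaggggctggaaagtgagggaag
Col27a1: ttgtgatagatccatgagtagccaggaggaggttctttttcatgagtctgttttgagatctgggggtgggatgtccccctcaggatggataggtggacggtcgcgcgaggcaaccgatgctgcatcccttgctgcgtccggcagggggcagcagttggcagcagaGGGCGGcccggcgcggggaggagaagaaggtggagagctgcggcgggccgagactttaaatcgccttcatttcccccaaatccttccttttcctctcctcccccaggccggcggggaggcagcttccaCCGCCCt
The window of Col1a2 held 2 CCAAT and 2 GGGCGG matches, that of Col4a1 1 of each, that of Col3a1 1 TATAAA match, that of Col27a1 2 GGGCGG matches, and that of Col4a4 none of them. Base composition differed too, with a GC content of 37.7% in the Col3a1 window, 61.0% in that of Col1a2 and 74.0% in that of Col4a1. Over all 35 collagen windows, CCAAT was found in 13 (37.4% of all 32851 windows of this length), GGGCGG in 22 (35.7% of all windows) and TATAAA in 5 (13.6% of all windows). A match describes the letters of a window and does not show that a factor binds there.

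Expression levels, which FPKM gives per length and so allows to be compared between genes, spanned a wide range. The basement membrane genes Col4a1, Col4a2 and Col18a1 had the highest mean FPKM (132, 97.1 and 95.6 over the 4 pools), followed by Col1a1 (64.9), Col3a1 (59.2) and Col1a2 (34). These 6 genes held between 69.4% and 76.0% of the reads on collagen genes in each pool. All 44 genes together took 0.415% and 0.659% of the reads on genes in WT pools 1 and 2, and 0.482% and 0.517% in KO pools 1 and 2, so both KO pools lay between the WT pools.

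**Figure D1:**
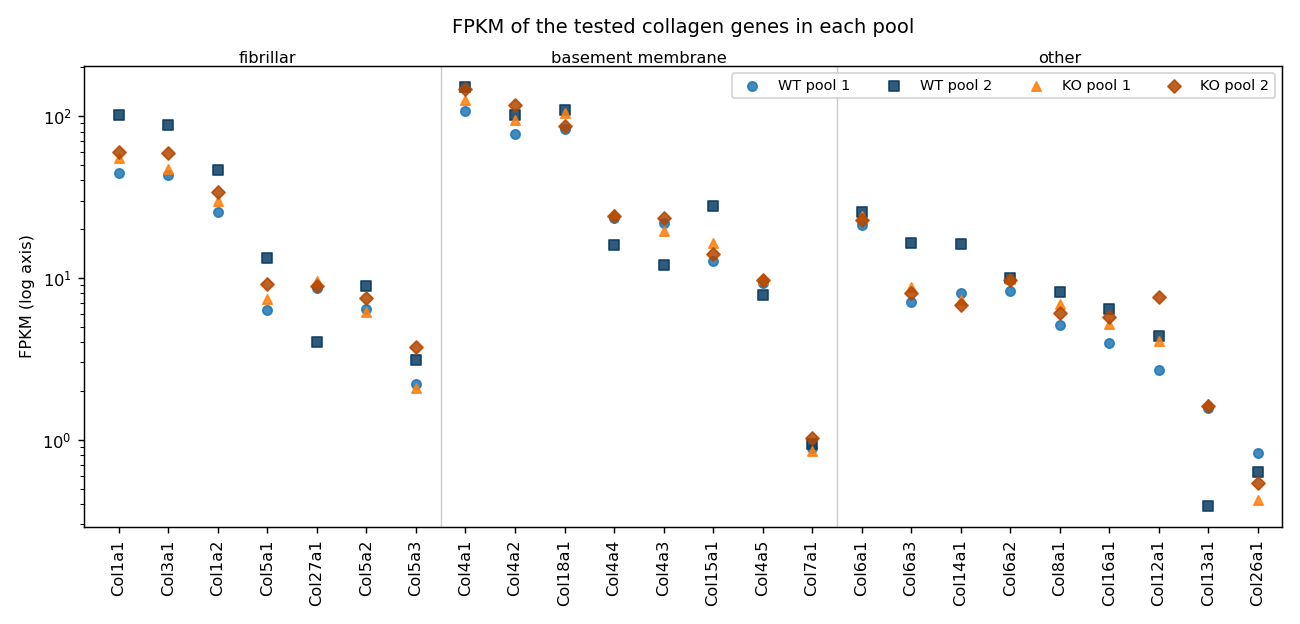
FPKM (log axis) of the 24 tested collagen genes, ordered by class and mean level, with a point for each of the 2 WT and 2 KO pools. WT pool 2 (dark squares) is the highest pool for 14 genes and the lowest for 5, and the KO points lie close to each other for most genes.

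The comparison of KO with WT asks whether collagen gene expression at day 3 differed with tubular Apela. By limma with Benjamini-Hochberg adjustment over 15414 genes, 0 of the 24 tested collagen genes had an adjusted p under 0.05 (0% of all genes tested, with a lowest adjusted p of 0.466), and 0 had an unadjusted p under 0.05 (6.32% of all genes tested). The deleted gene Apela did not pass either, at a log2 fold change of -2.62 (limma adjusted p = 0.466), so a count of 0 does not exclude changes. The adjusted p of the collagen genes began at 0.797, and with voom weights on the recovered reads the count was also 0. The median log2 fold change, on the scale of log2(FPKM + 0.5), was 0.016 over the 24 genes, beside 0.0071 over all genes tested. It was -0.018 after quantile normalization, -0.18 without WT pool 1 and 0.23 without WT pool 2. By class it was -0.13 for fibrillar, 0.14 for basement membrane and 0.012 for the other collagen genes. Without WT pool 1 the basement membrane median was 0.022, and that of the other collagen genes was -0.21 without WT pool 1 and 0.22 without WT pool 2. In whole-kidney RNA, fewer cells of a type and less RNA per cell cannot be told apart. With 2 pools per group, the intervals given below are wide, and a test that misses the threshold does not show that WT and KO were alike.

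**Figure D2:**
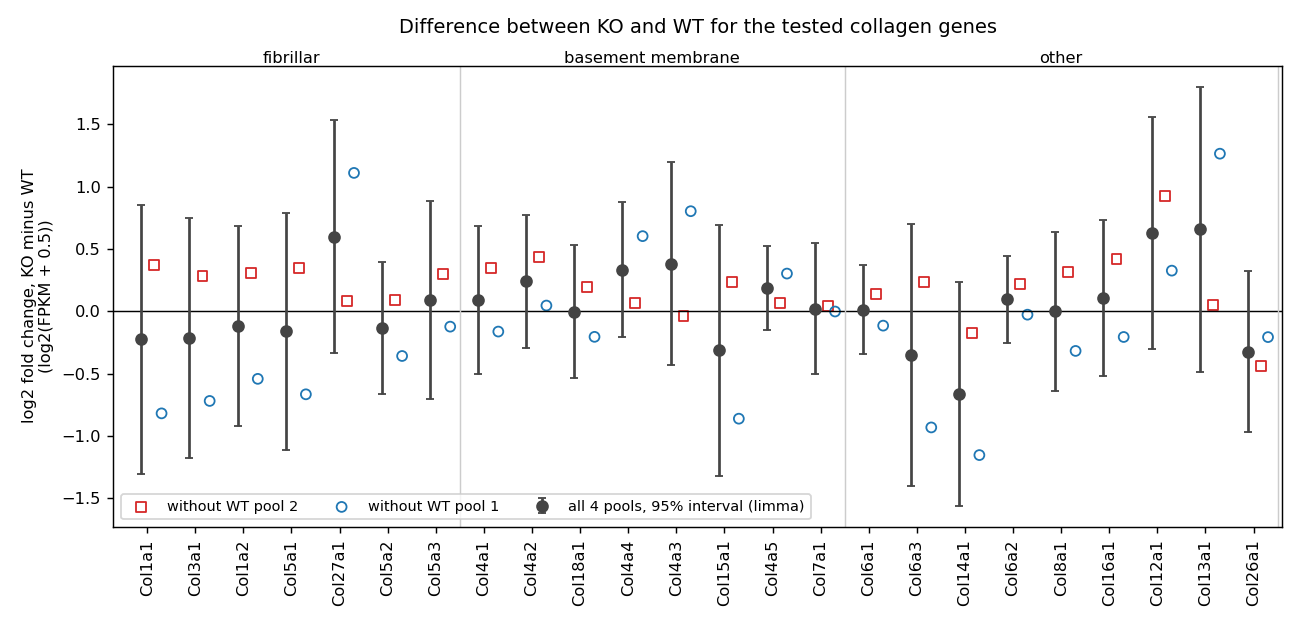
Log2 fold change (KO minus WT, on log2(FPKM + 0.5)) of each tested collagen gene, with all 4 pools and the 95% interval of limma (filled circles), without WT pool 2 (open squares) and without WT pool 1 (open circles). Every interval includes 0, and for the type I and III genes the squares lie above 0 and the open circles below it.

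Fibrillar collagen genes were the class in which the WT pools lay farthest apart, with a median absolute log2 ratio of WT pool 2 to WT pool 1 of 1.01, beside 0.46 for basement membrane and 0.69 for the other collagen genes. Col1a1 (chr11:94936224-94953042, positions here and below in GRCm38.p6), the main chain of type I collagen, had an FPKM of 44.1 and 101 (WT) and of 54.8 and 59.5 (KO). Its partner chain Col1a2 (chr6:4504814-4541544) had 25.6 and 46.6 (WT) against 30.0 and 33.8 (KO), and Col3a1 (chr1:45311538-45349706), the type III chain, 43.3 and 87.3 against 47.3 and 59.1. For all 3 genes WT pool 2 was the highest and WT pool 1 the lowest, with both KO pools in between, so the groups overlapped. The mean FPKM of Col1a1 was 72.6 ± 40.3 in the WT group and 57.2 ± 3.35 in the KO group (each SD, n = 2 pools), and its log2 fold change was -0.22 (standard error 0.41, 95% interval -1.30 to 0.85, limma adjusted p = 0.934). That of Col3a1 was -0.22 (standard error 0.36, limma adjusted p = 0.926) and that of Col1a2 -0.12 (standard error 0.30, limma adjusted p = 0.955). Without WT pool 2 the 3 log2 fold changes were 0.37, 0.29 and 0.31 for Col1a1, Col3a1 and Col1a2, the opposite sign. Without WT pool 1 they were -0.82, -0.72 and -0.54.

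Col27a1 (chr4:63214004-63334991), a fibrillar chain known from cartilage, showed the reverse order of the WT pools. FPKM values were 8.69 and 4.01 (WT) and 9.53 and 8.95 (KO), so the groups did not overlap, although WT pool 1 lay close to the KO pools. Its log2 fold change was 0.60 (standard error 0.35, 95% interval -0.34 to 1.53, limma adjusted p = 0.798), and 0.083 without WT pool 2. The type V genes Col5a1, Col5a2 and Col5a3, whose chains sit in the core of type I fibrils and regulate their width, had mean FPKM of 9.01, 7.24 and 2.80, log2 fold changes of -0.16, -0.13 and 0.089, and overlapping pools. With 1 pool left out, these ranged from -0.67 to 0.35, from -0.36 to 0.089 and from -0.27 to 0.45, so the sign changed for each. In the class as a whole, 5 of 7 log2 fold changes were below 0 with all pools, while without WT pool 2 all 7 were above 0 with a median of 0.30. Without WT pool 1 the median was -0.54.

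The fibroblast and pericyte marker list, of which 16 of 19 genes passed the filter and Meg3 was at 0 in every pool, summed to an FPKM of 148 and 261 (WT) and 183 and 282 (KO). Acta2, the actin of smooth muscle and myofibroblasts, had an FPKM of 43.0 and 98.4 (WT) and of 60.6 and 125 (KO), and Pdgfrb, the receptor that marks pericytes and fibroblasts, 16.7 and 27.6 (WT) and 25.6 and 26.5 (KO). Without Acta2 the list summed to 105 and 163 (WT) and 122 and 157 (KO), with both KO pools between the WT pools. KO values exceeded WT values in every pool in 2 of the 16 tested markers (19.7% of all genes tested) and were below them in 3 (18.1%), and all 5 were named after their values were seen. The 2 higher ones were S100a4, a calcium-binding protein gene (0.213 and 0.498 in WT, 1.02 and 0.738 in KO), and Eln, the elastin gene (1.58 and 1.49 in WT, 1.62 and 1.79 in KO), with log2 fold changes of 0.70 and 0.11 (limma adjusted p = 0.786 and 0.902). S100a4 had only 2 and 5 reads in WT and 10 and 7 in KO, and its log2 fold change was 0.46 without WT pool 1. That of Eln was 0.058 without KO pool 2. The 3 lower ones were Dpt, Thy1 and Rgs5, while 10 of the 16 markers had a log2 fold change above 0. Dpt, encoding dermatopontin of the extracellular matrix, had 2.02 and 2.56 (WT) against 1.25 and 1.29 (KO) and a log2 fold change of -0.65 (limma adjusted p = 0.760), and it was the 1 marker of the list with an unadjusted p under 0.05 (6.32% of all genes tested). The log2 fold changes of Thy1 and Rgs5 were -1.23 and -0.34 (limma adjusted p = 0.797 for both), and without WT pool 2 they were -0.58 and -0.21. The macrophage list (15 of 15 tested) summed to 7239 and 8292 in WT and 9231 and 7111 in KO mice. Most of this was Spp1, whose source among the kidney cells was not tested. Without Spp1 the list summed to 214 and 503 in WT and 270 and 239 in KO mice. WT pool 2 was the highest pool for 11 of its genes (29.1% of all genes tested). In this list 11 of 15 log2 fold changes were below 0, with a median of -0.47, which was 0.082 without WT pool 2. KO values exceeded WT values in every pool in 1 macrophage gene (19.7% of all genes tested) and were below them in 3 (18.1%). The proximal tubule list (14 of 14 tested) summed to 12481 and 7122 (WT) and 8124 and 12627 (KO). Without Kap, its most abundant gene, it summed to 3505 and 2735 (WT) and 2086 and 3310 (KO), with KO pool 1 lowest. The distal list (12 of 12 tested) summed to 1991 and 1447 against 2015 and 1673. The part of these cell types in the collagen values was not tested.

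Among basement membrane collagens, the widespread type IV chains had the highest level. Col4a1 (chr8:11198423-11312826) had an FPKM of 106 and 152 (WT) and of 125 and 147 (KO). Col4a2 (chr8:11312805-11449287) had 77.3 and 101 against 93.8 and 116. For both genes WT pool 1 was the lowest of the 4, and WT pool 2 lay above at least 1 KO pool, so the groups overlapped. The log2 fold change was 0.092 for Col4a1 (standard error 0.23, limma adjusted p = 0.953; -0.040 after quantile normalization and -0.16 without WT pool 1) and 0.24 for Col4a2 (standard error 0.20, limma adjusted p = 0.852; 0.046 without WT pool 1 and 0.086 without KO pool 2). The exons of this pair share 22 bases on opposite strands, and how the counting used strand is not given in the sources used here, although so short an overlap is a small part of either gene.

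The chains of the glomerular network showed another order of the pools. Col4a3 (chr1:82586921-82722059) had an FPKM of 21.9 and 12.0 in WT and of 19.3 and 23.4 in KO mice, and Col4a4 (chr1:82448423-82586849), its head-to-head neighbour, 23.3 and 15.9 in WT and 24.8 and 24.1 in KO mice. Col4a5 (chrX:141475385-141689234) had 9.28 and 7.82 (WT) against 9.78 and 9.74 (KO). WT pool 2 was the lowest pool for all 3 genes, whereas it was the highest for Col4a1 and the second highest for Col4a2, and the KO values exceeded the WT values in every pool for Col4a4 and Col4a5 but not for Col4a3. The log2 fold changes were 0.38 for Col4a3 (standard error 0.31, limma adjusted p = 0.843), 0.33 for Col4a4 (standard error 0.21, limma adjusted p = 0.804) and 0.19 for Col4a5 (standard error 0.13, limma adjusted p = 0.824), and without WT pool 2 they were -0.040, 0.064 and 0.069. Col4a6, the remaining type IV chain, had 2 and 6 reads in WT and 7 and 2 in KO mice and was not tested. Col4a3 shares 563 exon bases with the transcript C430014B12Rik on the opposite strand, which had a mean FPKM of 0.288 beside 19.1 for Col4a3.

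As a share of the summed type IV FPKM, Col4a3, Col4a4 and Col4a5 made up 22.9% and 12.4% in WT pools 1 and 2 and 19.8% and 17.9% in KO pools 1 and 2. The summed type IV FPKM was 238 and 288 (WT) against 272 and 320 (KO). WT pool 2 thus had the lowest share of the glomerular chains at a total within the range of the other pools. The 5 tested type IV genes all had a log2 fold change above 0, with a median of 0.24, which was 0.069 without WT pool 2, when 4 of 5 were above 0. All 10 podocyte markers, genes of the cells that make these chains, passed the filter and summed to an FPKM of 89.1 and 84.1 in WT and 93.1 and 100 in KO mice. WT pool 2 was lowest in this sum too, by a smaller margin than in the chain share. It was also lowest in the sum of the distal list (1991 and 1447 in WT, 2015 and 1673 in KO). Of the 12 distal markers, 0 were higher in WT pool 2 than in WT pool 1, and so were 0 of the 14 proximal tubule markers (7471 of all 15414 genes tested). WT pool 2 was the lowest pool for 4 of 10 podocyte, 6 of 12 distal and 6 of 14 proximal tubule markers (30.7% of all genes tested). KO pool 1 was the lowest for 8 of 14 proximal tubule markers (3592 of all 15414 genes tested). The part of podocytes and of tubule cells in the difference was not tested.

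Collagens XV and XVIII are basement membrane proteoglycans, and the C-terminal fragment of the Col18a1 product is endostatin, an inhibitor of vessel growth. Col18a1 (chr10:77052178-77166548) had an FPKM of 82.6 and 109 (WT) and of 105 and 86.0 (KO), with both KO pools between the WT pools and a log2 fold change of -0.0035 (standard error 0.20, 95% interval -0.54 to 0.53, limma adjusted p = 0.999). Col15a1 (chr4:47208161-47313167) had 12.8 and 27.9 against 16.3 and 14.0, where WT pool 2 stood above the other pools, and its log2 fold change was -0.31 (standard error 0.38, limma adjusted p = 0.891) with all pools and 0.23 without WT pool 2. The endothelial marker list (15 of 15 tested) summed to 236 and 272 in WT and 315 and 342 in KO mice, and Plvap, a gene of fenestrated endothelium, was its most abundant member (103 and 110 against 161 and 152). Without Plvap the list summed to 133 and 162 in WT and 154 and 190 in KO mice, so that the groups overlapped. In 7 of the 15 markers KO values exceeded WT values in every pool (19.7% of all genes tested) and in 0 they were below (18.1%). The log2 fold change was above 0 in 14 of the 15, with all pools and without WT pool 2, with a median of 0.20 and 0.34. Without WT pool 1 the median was that of Emcn, 0.057. Cdh5, Egfl7 and Erg were then below 0 (-0.20, -0.13 and -0.077) and the other markers above it. By limma 0 of them had an adjusted p under 0.05 and 2 an unadjusted p under 0.05 (6.32% of all genes tested), Plvap and Flt1, a receptor for vascular endothelial growth factor, with limma adjusted p = 0.742 and 0.757. The part of endothelial cells in the collagen values was not tested. Col7a1, the anchoring fibril chain, had a mean FPKM of 0.928 with overlapping pools.

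The other collagens tested were 3 type VI, 3 fibril-associated, 1 short-chain, 1 transmembrane and 1 unclassified chain. Type VI collagen forms beaded filaments from chains of Col6a1, Col6a2 and Col6a3. Col6a1 (chr10:76708792-76726168) had an FPKM of 21.3 and 25.5 in WT and 24.1 and 22.9 in KO mice, with a log2 fold change of 0.012 (standard error 0.14, limma adjusted p = 0.992; -0.038 after quantile normalization and -0.12 without WT pool 1). Col6a3 (chr1:90765923-90843971) had 7.07 and 16.5 against 8.72 and 8.10, and a log2 fold change of -0.35 (standard error 0.40, limma adjusted p = 0.884), which was 0.23 without WT pool 2. The KO pools lay between the WT pools for both genes, but WT pool 2 exceeded WT pool 1 by 1.20-fold for Col6a1 and by 2.33-fold for Col6a3.

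Col14a1 and Col13a1 had the largest differences of this class. Col14a1 (chr15:55307750-55520803), a chain that binds to the surface of type I fibrils, had an FPKM of 8.02 and 16.3 (WT) and of 7.32 and 6.78 (KO). Both KO pools were below both WT pools, though close to WT pool 1. The log2 fold change was -0.66 (standard error 0.34, 95% interval -1.56 to 0.23, limma adjusted p = 0.797) and -0.18 without WT pool 2. Col13a1 (chr10:61838236-61979108), a transmembrane collagen of cell contacts, had an FPKM of 1.57 and 0.391 in WT and of 1.66 and 1.62 in KO mice, from 116, 31, 128 and 121 reads. WT pool 2 was the single low pool, and the log2 fold change of 0.66 (standard error 0.43, 95% interval -0.49 to 1.80, limma adjusted p = 0.816) was 0.050 without it. With all pools it was 0.94 at a pseudocount of 0.1, 0.48 at a pseudocount of 1 and 1.08 with voom weights.

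Col12a1 was chosen after its values were seen, as the gene of this class with the largest log2 fold change once WT pool 2 was left out. This fibril-associated chain, known from tendon and healing tissue, had an FPKM of 2.70 and 4.34 in WT and of 4.06 and 7.58 in KO mice, so that the groups overlapped and KO pool 2 stood highest. Its log2 fold change was 0.62 (standard error 0.35, 95% interval -0.31 to 1.56, limma adjusted p = 0.798) and 0.92 without WT pool 2, and 0.21 without KO pool 2. Col26a1 had the lowest mean FPKM of the genes tested (0.607) and both KO pools (0.424 and 0.542) below both WT pools (0.830 and 0.633). The remaining genes Col6a2, Col8a1 and Col16a1 had mean FPKM from 5.34 to 9.46 and overlapping pools.

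The 20 collagen genes under the filter had a mean FPKM from 0.0033 to 0.317, and no more than 48 reads in any pool. Col20a1 (0.317) lay just under the filter and Col26a1 (0.607) just above it. Among them were the cartilage chains Col2a1, Col9a1, Col9a2, Col9a3, Col10a1, Col11a1 and Col11a2, the hemidesmosome chain Col17a1 and the type VI chains Col6a4, Col6a5 and Col6a6. For 6 genes every pool was at or under the detection floor of 3 reads, and 8 genes had no read in at least 1 pool. In the fit without a filter, 0 of all 44 collagen genes had an adjusted or an unadjusted p under 0.05 by limma.

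Across the 24 tested genes, the 2 WT pools differed from each other more than the 2 KO pools did. The median absolute log2 ratio of WT pool 2 to WT pool 1 was 0.69, beside 0.22 over all genes tested, while that of KO pool 2 to KO pool 1 was 0.20, beside 0.19. In 21 of 24 genes the WT pools lay farther apart than the KO pools, which held for 8155 of the 15414 genes tested. WT pool 2 was the highest of the 4 pools in 14 collagen genes (29.1% of all genes tested) and the lowest in 5 (30.7%), namely Col4a3, Col4a4, Col4a5, Col13a1 and Col27a1. Both KO pools lay between the WT pools in 12 of 24 genes (16% of all genes tested). Col1a1, Col6a3, Col15a1, Col5a1, Col14a1 and Col3a1 were more than 2-fold higher in WT pool 2 than in WT pool 1, whereas Col13a1 was 4.0-fold and Col27a1 2.17-fold lower there. No tested collagen gene differed 2-fold between the KO pools, where the widest ratios were 1.87 for Col12a1 and 1.79 for Col5a3.

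**Figure D3:**
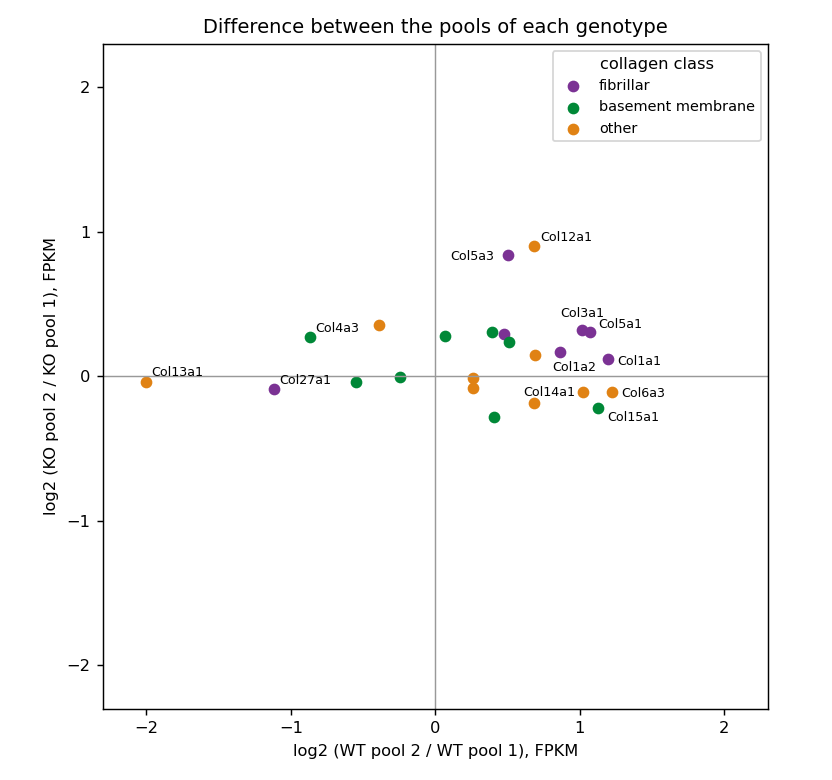
Log2 ratio of the FPKM of pool 2 to pool 1 in WT (horizontal axis) and in KO mice (vertical axis) for the 24 tested collagen genes, coloured by class, on equal scales. The points spread along the WT axis from Col13a1 (4.0-fold lower in pool 2) to Col6a3 (2.33-fold higher) and less far along the KO axis, with Col12a1 highest (1.87-fold).

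The counts of genes whose groups did not overlap follow this spread. KO values exceeded WT values in every pool in 4 of 24 collagen genes (19.7% of all genes tested), Col4a4, Col4a5, Col13a1 and Col27a1, and lay below them in 2 (18.1%), Col14a1 and Col26a1. With an absolute log2 fold change of at least 0.5 as well, there were 3 genes (7.82% of all genes tested), Col13a1, Col14a1 and Col27a1. Set against WT pool 1 alone, KO values were higher in both pools in 18 genes (34.3% of all genes tested) and lower in both in 2 (32%). Set against WT pool 2 alone they were higher in 5 genes (37.7%) and lower in 15 (35.9%). For the 12 genes with both KO pools between the WT pools, the direction thus depended on the WT pool taken. The counts against a single WT pool were made after the values were seen. The median log2 fold change of the 24 genes was -0.18 without WT pool 1 and 0.23 without WT pool 2, in limma fits that take the spread from the KO pools.

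Ratios of chains within a pool do not depend on the scaling of the library. Of the 9 ratios computed, 7 overlapped between the groups. Col1a1 to Col1a2, which form type I collagen together, had ratios of 1.72 and 2.17 in WT and 1.83 and 1.76 in KO mice. The ratio of Col6a1 to Col6a3 was 3.01 and 1.55 in WT and 2.77 and 2.82 in KO mice, with WT pool 2 apart from the other pools. The summed fibrillar FPKM (137 and 265 in WT, 158 and 182 in KO) divided by the summed type IV FPKM gave 0.576 and 0.918 in WT and 0.578 and 0.569 in KO mice, so that WT pool 1 and both KO pools were close to each other and WT pool 2 alone was higher (two-sided exact permutation p = 0.667). The log2 ratio of KO to WT was -0.34 with all pools and -0.0050 without WT pool 2.

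The ratio of Col4a1 to Col4a2 was 1.38 and 1.5 in WT and 1.33 and 1.26 in KO mice, and that of Col6a1 to Col6a2 was 2.56 and 2.56 in WT and 2.46 and 2.35 in KO mice. These were the 2 ratios of 9 in which the groups did not overlap, both lower in KO mice, by 0.15 and 0.091 on the log2 scale of the means. Without WT pool 2 the first difference was -0.087, and without KO pool 2 the second was -0.059. The two-sided exact permutation p was 0.333 for each, which is the smallest that 2 pools against 2 can give, so this test cannot reach 0.05 with 2 pools per group and an adjustment over the 9 ratios would not lower it.

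**Figure D4:**
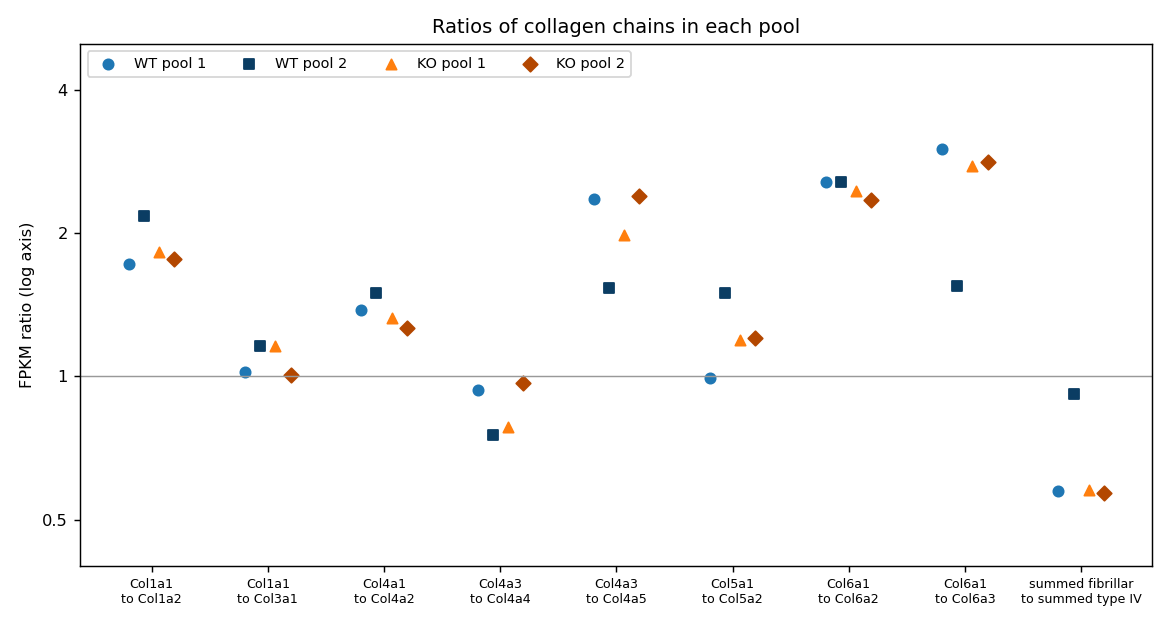
FPKM ratios (log axis) of collagen chains in each pool, for 8 pairs of genes and for the summed fibrillar over the summed type IV FPKM. The points of WT and KO separate for Col4a1 to Col4a2 and for Col6a1 to Col6a2 only, and WT pool 2 stands apart for Col6a1 to Col6a3 and for the fibrillar to type IV ratio.

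Genes that make collagen, modify it in the endoplasmic reticulum or help its secretion were listed next. Of 21 genes 20 were tested, 0 had an adjusted or an unadjusted p under 0.05 by limma, KO values exceeded WT values in every pool in 2 (19.7% of all genes tested) and were below them in 1 (18.1%), and the median log2 fold change was 0.036 (-0.13 without WT pool 1). Serpinh1, the collagen chaperone HSP47, had an FPKM of 67.1 and 125 (WT) and of 60.6 and 78.2 (KO), and a log2 fold change of -0.41 (standard error 0.34, limma adjusted p = 0.849), which was 0.038 without WT pool 2. WT pool 2 was the highest pool for Serpinh1, as it was for the type I and III genes. P4ha1, a subunit of prolyl 4-hydroxylase, had 11.9 and 16.6 against 13.4 and 12.0 with a log2 fold change of -0.15 (0.085 without WT pool 2), and the lysyl hydroxylase Plod2 9.38 and 9.75 against 9.58 and 8.49 with -0.080 (0.0025 without KO pool 2).

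The 3 tested genes of this list with non-overlapping pools were P3h4, P3h1 and Crtap. P3h4 had an FPKM of 5.00 and 4.32 in WT and of 10.7 and 5.54 in KO mice (log2 fold change 0.68, standard error 0.32, limma adjusted p = 0.797), with KO pool 1 apart from the rest and a log2 fold change of 0.23 without it. P3h1, a prolyl 3-hydroxylase, had 7.57 and 9.16 against 6.95 and 7.29 (-0.21, standard error 0.14, limma adjusted p = 0.809), and Crtap, its partner, 41.3 and 46.3 against 49.8 and 46.8 (0.14, standard error 0.13, limma adjusted p = 0.854). P3h1 and Crtap, members of a single complex, thus lay in opposite directions, and neither passed the test. The log2 fold change was -0.084 for P3h1 without WT pool 2 and 0.060 for Crtap without WT pool 1 (0.062 after quantile normalization). The pools of P3h2, P3h3 and Ppib, of the same enzyme family and complex, overlapped.

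Among 18 genes for the processing and crosslinking of procollagen, 14 were tested, 0 had an adjusted p and 1 an unadjusted p under 0.05 (6.32% of all genes tested), KO values exceeded WT values in every pool in 1 (19.7%) and were below them in 2 (18.1%), and the median log2 fold change was 0.030 (-0.26 without WT pool 1). Lox, the lysyl oxidase that crosslinks fibrils, had an FPKM of 3.75 and 4.25 in WT and of 4.59 and 8.10 in KO mice (log2 fold change 0.56, standard error 0.28, limma adjusted p = 0.797). KO pool 2 stood highest, and the log2 fold change of Lox was 0.18 without KO pool 2 and 0.94 without KO pool 1. Dcn, encoding decorin, which coats type I fibrils, had 4.18 and 6.24 against 3.39 and 2.25 (log2 fold change -0.78, standard error 0.27, 95% interval -1.48 to -0.080, limma adjusted p = 0.785). The interval of Dcn, which takes no account of the number of genes tested, lay below 0 and both KO pools were lower, also against WT pool 1 alone (log2 fold change -0.52 without WT pool 2).

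Of 20 genes for collagen degradation and its inhibitors, 15 were tested, 0 had an adjusted p and 2 an unadjusted p under 0.05 (6.32% of all genes tested), KO values exceeded WT values in every pool in 1 (19.7%) and were below them in 3 (18.1%), and the median log2 fold change was -0.096 (0.11 without WT pool 2). Mmp7, the matrilysin of injured tubular epithelium, had an FPKM of 2.62 and 2.01 in WT and of 3.69 and 3.58 in KO mice. These values came from 45 and 37 reads in WT and 66 and 62 in KO. Its log2 fold change was 0.56 (standard error 0.16, 95% interval 0.14 to 0.99, limma adjusted p = 0.772), and 0.41 without WT pool 2. The interval takes no account of the number of genes tested. Timp3, a matrix-bound inhibitor of metalloproteinases, had 114 and 106 against 93.0 and 91.9 (log2 fold change -0.25, standard error 0.13, limma adjusted p = 0.797), and Prep, a prolyl endopeptidase, 5.00 and 5.28 against 4.34 and 4.42 (log2 fold change -0.21, limma adjusted p = 0.798). The WT pools differed 1.30-fold in Mmp7, 1.07-fold in Timp3 and 1.06-fold in Prep, less than in the type I and III genes (1.82-fold to 2.29-fold). The other gene with an unadjusted p under 0.05 was the collagenase Mmp13, which averaged under 1 FPKM and was named after its values were seen. It had 0.745 and 1.20 in WT and 0.358 and 0.392 in KO mice, from 32, 55, 16 and 17 reads. Its log2 fold change was -0.73 (95% interval -1.43 to -0.033, limma adjusted p = 0.785), and this interval likewise takes no account of the number of genes tested. The gelatinase Mmp2 (3.27 and 8.19 in WT, 3.42 and 3.11 in KO) and the membrane-bound collagenase Mmp14 (6.55 and 11.9 in WT, 8.33 and 7.13 in KO) were highest in WT pool 2, with log2 fold changes of -0.61 and -0.19 that were -0.0024 and 0.22 without that pool. The inhibitor Timp1 had 18.9 and 30.2 against 21.9 and 33.9 with a log2 fold change of 0.18, which was -0.15 without WT pool 1 and -0.13 without KO pool 2.

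Of 10 collagen receptor genes 7 were tested, 0 had an adjusted or an unadjusted p under 0.05, KO values exceeded WT values in every pool in 1 (19.7% of all genes tested) and were below them in 3 (18.1%), and the median log2 fold change was 0.081, which was -0.055 after quantile normalization and -0.16 without WT pool 1. Ddr2, a receptor tyrosine kinase for fibrillar collagen, had an FPKM of 2.67 and 4.11 in WT and of 2.34 and 2.07 in KO mice (log2 fold change -0.50, standard error 0.22, limma adjusted p = 0.797; -0.23 without WT pool 2). Itga1, the integrin chain that binds type IV and type I collagen, had 7.29 and 9.59 against 7.20 and 7.04 (log2 fold change -0.22, limma adjusted p = 0.831; -0.032 without WT pool 2), with WT pool 1 close to the KO pools. Adgrg1, a receptor for collagen III, had 111 and 117 against 122 and 119 (log2 fold change 0.081, limma adjusted p = 0.921), and -0.055 after quantile normalization.

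**Figure D5:**
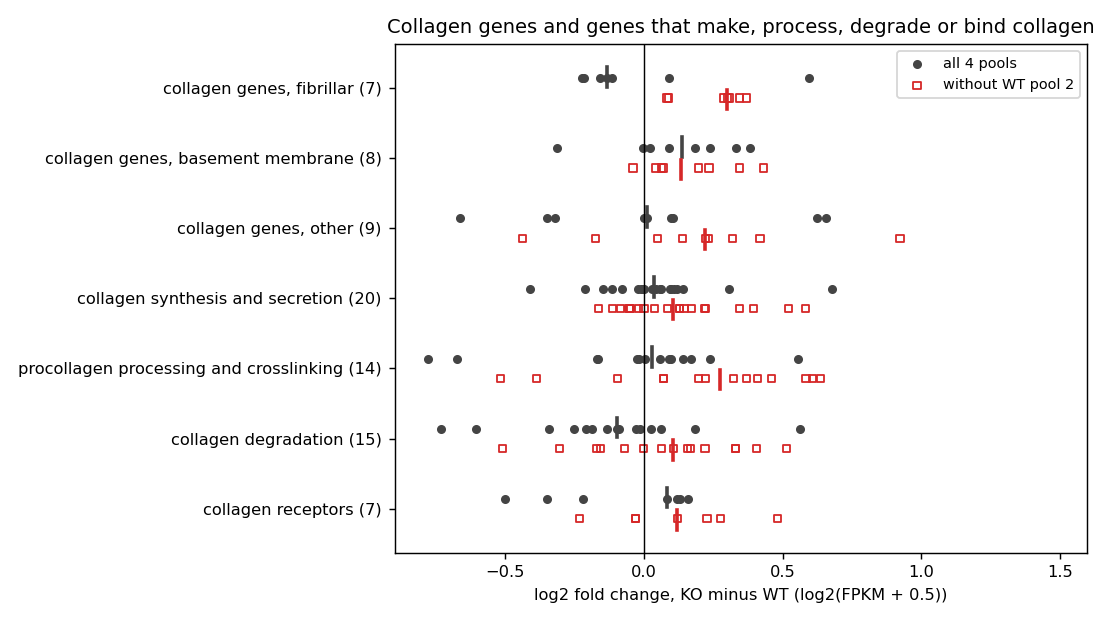
Log2 fold change (KO minus WT) of single genes in the 3 collagen classes and in the 4 lists of genes that make, process, degrade or bind collagen, with all 4 pools (circles) and without WT pool 2 (squares), and a tick at each median. The fibrillar median goes from -0.13 to 0.30 when WT pool 2 is left out, and the degradation median from -0.096 to 0.11.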

How the data were processed

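Libraries were prepared from poly-A-selected kidney RNA with random priming, and no strand marking is described in the labels. The authors deposited FPKM per gene with positions, lengths and biotypes. The submitters' processing notes name HISAT2 2.0.5 and the builds mm10 and GRCm38.p6, and the counting tool is not given in the sources used here. Coordinates equalled those of GENCODE M21 for 97.1% of 53620 shared genes and for all 44 collagen genes. FPKM times gene length gave whole reads for 100% of values (tolerance 0.01 of a read). These reads served for depth and for voom. The total behind the FPKM of WT pool 2 (17203609) exceeded its reads on genes (16045724). In the other pools it lay below them (16071739 against 16290098 in WT pool 1, 16727839 against 16927742 in KO pool 1, 16237848 against 16772105 in KO pool 2). A plain total of reads would not lie below the reads on genes. The deposited values thus carry a scaling between libraries, and quantile normalization was tried beside it.

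Log2(FPKM + 0.5) was compared with limma 3.58.1 in R 4.3.3 (lmFit, eBayes with trend), two-sided. The 15414 genes averaging 0.5 FPKM or more entered the fit, and p-values were adjusted over them by Benjamini-Hochberg. Such fold changes understate those of low genes. Scripts used Python 3.11.15, scipy 1.17.1 and pandas 2.3.3. The fit was also run on simulated data as a check of the code. That run does not give the power in these data, where the deleted gene Apela did not pass.

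The collagen genes, their classes and the lists (collagen synthesis, processing, degradation and receptors, and fibroblast, podocyte, endothelial, macrophage, proximal tubule, distal and adipocyte markers) were chosen with earlier results of these data known. Values in every pool are given for the 12 collagen genes with the highest mean FPKM, the 6 type IV chains and collagen genes whose pools did not overlap with an absolute log2 fold change of at least 0.5, and, of each of the 4 lists of collagen synthesis, processing, degradation and receptor genes, the 3 genes with the largest absolute log2 fold change among those averaging 1 FPKM or more without overlap between the groups, and Serpinh1, Lox, P4ha1, Plod2, Mmp2, Mmp14 and Timp1. The fit was repeated with a pseudocount of 0.1 or 1, without the filter or with a filter of 1, without the trend, with voom weights, quantile normalization, a replicate block and each pool left out in turn.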

Additional observations from a re-analysis of the deposited data

How the results depend on the processing

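The count of 0 collagen genes at an adjusted p under 0.05 held under every alternative run, with adjusted p from 0.298 to 1.00. Pseudocounts, filters and voom weights reversed 0 of 32 named genes, and quantile normalization 3, with log2 fold changes of -0.040 (Col4a1), -0.038 (Col6a1) and -0.055 (Adgrg1). The medians of all collagen, synthesis and receptor genes were then -0.018, -0.00091 and -0.055.

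Leaving out each pool in turn had more effect, above all WT pool 2, which reversed 10 of 32 named genes, while the cause was not tested. Collagen genes with both KO pools above WT numbered 4 with all pools (19.7% of all genes tested), 5 without WT pool 1 (37.7%) and 18 without WT pool 2 (34.3%). Those with both KO pools below WT numbered 2 with all pools (18.1%), 15 without WT pool 1 (35.9%) and 2 without WT pool 2 (32%). Median log2 fold changes ranged from -0.18 to 0.23 (all collagens), from -0.54 to 0.30 (fibrillar), from 0.022 to 0.20 (basement membrane), from -0.21 to 0.22 (other collagens), from -0.13 to 0.11 (synthesis), from -0.26 to 0.27 (processing), from -0.24 to 0.11 (degradation) and from -0.16 to 0.12 (receptors). KO minus WT log2 ratios ranged from -0.28 to 0.060 (Col1a1 to Col1a2), from -0.11 to 0.094 (Col1a1 to Col3a1), from -0.11 to 0.21 (Col4a3 to Col4a4), from -0.11 to 0.51 (Col4a3 to Col4a5), from -0.32 to 0.27 (Col5a1 to Col5a2) from -0.11 to 0.85 (Col6a1 to Col6a3), from -0.21 to -0.087 (Col4a1 to Col4a2), from -0.12 to -0.059 (Col6a1 to Col6a2) and from -0.68 to -0.0050 (fibrillar to type IV). Among the 32 named genes, log2 fold changes that changed sign ranged from -0.16 to 0.35 (Col4a1), from -0.20 to 0.20 (Col18a1), from -0.82 to 0.37 (Col1a1), from -0.72 to 0.29 (Col3a1), from -0.54 to 0.31 (Col1a2), from -0.12 to 0.14 (Col6a1), from -0.040 to 0.80 (Col4a3), from -0.86 to 0.23 (Col15a1), from -0.93 to 0.23 (Col6a3), from -0.86 to 0.038 (Serpinh1), from -0.38 to 0.085 (P4ha1), from -0.16 to 0.0025 (Plod2), from -0.59 to 0.22 (Mmp14) and from -0.15 to 0.52 (Timp1). In such a fit the lone pool is assumed to vary like the other group.

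With the replicate number as a replicate block, 0 collagen genes had an adjusted p under 0.05 and the medians stayed at 0.016 (all), -0.13 (fibrillar), 0.14 (basement membrane) and 0.012 (other), since the design is balanced. The deviations of WT pool 1 and KO pool 1 from their group means correlated at -0.0017 across genes. A single value over all genes cannot settle whether the numbers pair the samples. With 2 pools per group, the intervals rest on the spread between pools, and the 20 genes under the filter, with at most 48 reads in any pool, entered only the fit without a filter.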
